A study of Mus musculus with 15 samples.

Results

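Open chromatin of the fetal testis was set against that of the adult kidney by merging 3 lists of DNase hypersensitive peaks, from preSertoli cells of E13.5 and of E15.5 embryos (E, embryonic day) and whole adult kidney. Overlapping peaks were joined into 137738 regions, out of 237676 regions over all 8 DNase-seq lists of the series. Of these, 23002 regions (16.7%) held a peak at both preSertoli stages and none in kidney. Another 29257 (21.2%) held a kidney peak and none at either preSertoli stage, and 32930 (23.9%) held a peak in all 3 lists. The classes are called preSertoli-not-kidney, kidney-only (together the 1-sided classes) and shared below. The remaining regions were in E13.5 alone (25662), in E15.5 alone (19495), in E13.5 and kidney (3635) or in E15.5 and kidney (3757).

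Kidney and gonad both derive from the intermediate mesoderm of the embryo and share early transcription factors such as Wt1, Osr1 and Lhx1. PreSertoli cells are the supporting cells of the fetal testis, specified by Sry and Sox9, and they direct the rest of the organ towards the male fate by secreting factors such as Amh. The adult kidney is a mixture of podocytes, tubule segments, collecting duct, vessels and interstitium that filters blood and recovers solutes. DNase-seq marks DNA that a nuclease can reach, which includes promoters, enhancers and insulators. H3K27ac is a histone mark found at active promoters and enhancers.

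The preSertoli cells were sorted by flow cytometry from testes of male embryos heterozygous for Sox9-ECFP, a fluorescent reporter. Their fathers were homozygous C57BL/6J and their mothers were CD-1, so the strain was C57BL/6J x CD-1 (F1). The sorted cells were frozen slowly, and their chromatin was cut by their own nucleases because added DNase I degraded the DNA. The kidney was a whole organ from adult C57BL/6J mice, frozen quickly, ground and treated with DNase I by the standard protocol. The labels used here give neither its sex nor an age beyond adult. Cell type, developmental stage, sorted cells against a whole organ, strain and digestion therefore change together between the groups and cannot be told apart. Each DNase group was 1 library, so no test between groups was made and no DNase comparison below has a replicate check. Intervals are Wilson 95% intervals of counts, covering counting error only, and the range over chromosomes is given as a second measure of spread. In a whole organ, a weak peak in all cells and a strong peak in few cells cannot be told apart.

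The E13.5, E15.5 and kidney lists held 88107, 81467 and 72370 peaks with median widths of 308, 333 and 339 bp. The number of reads behind each list is unknown. The authors' −log10 p, which stops at 16 in every list, was at that limit for 4.02% of kidney peaks, against 0.199% of E13.5 and 0.0957% of E15.5 peaks. Peaks were ranked by the authors' signal height within their own list, as a percentile in which 100 is the highest peak, and a region took the percentile of its highest peak. A rank in a list shows the order of peaks in that library and no change between libraries. Joining peaks also widens regions, and the median width was 694 bp for shared, 416 bp for preSertoli-not-kidney and 254 bp for kidney-only regions. All positions are in mm9. No region was assigned to a gene and no sequence is shown, since no genome or annotation of that build was used here.

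Regions in all 3 lists held the strongest peaks of each library, and regions of 1 side held weaker ones. Shared regions had a median percentile of 77.8 in E13.5, 75.8 in E15.5 and 73.8 in kidney. PreSertoli-not-kidney regions stood in the middle of their own lists, with medians of 49.6 in E13.5 and 48.5 in E15.5. Kidney-only regions had a median of 32.5 in the kidney list. These medians of the 1-sided classes are not on an equal footing, since preSertoli-not-kidney regions had to be called in 2 libraries and kidney-only regions in 1. The gaps to the shared regions were 28.2 points in E13.5, 27.2 in E15.5 and 41.3 in kidney. With 1 stage at a time against kidney, the order turned, with gaps of 39.6 in E13.5 against 36.8 in kidney, and 38.6 in E15.5 against 37.0 in kidney. Over the 19 autosomes and X, class medians ran from 44.7 to 51.4 for preSertoli-not-kidney regions in E13.5, from 26.2 to 35.7 for kidney-only regions, and from 71.7 to 77.1 for shared regions in kidney. Within the kidney list, the chromosome ranges of the kidney-only and shared classes did not overlap.

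**Figure D1:**
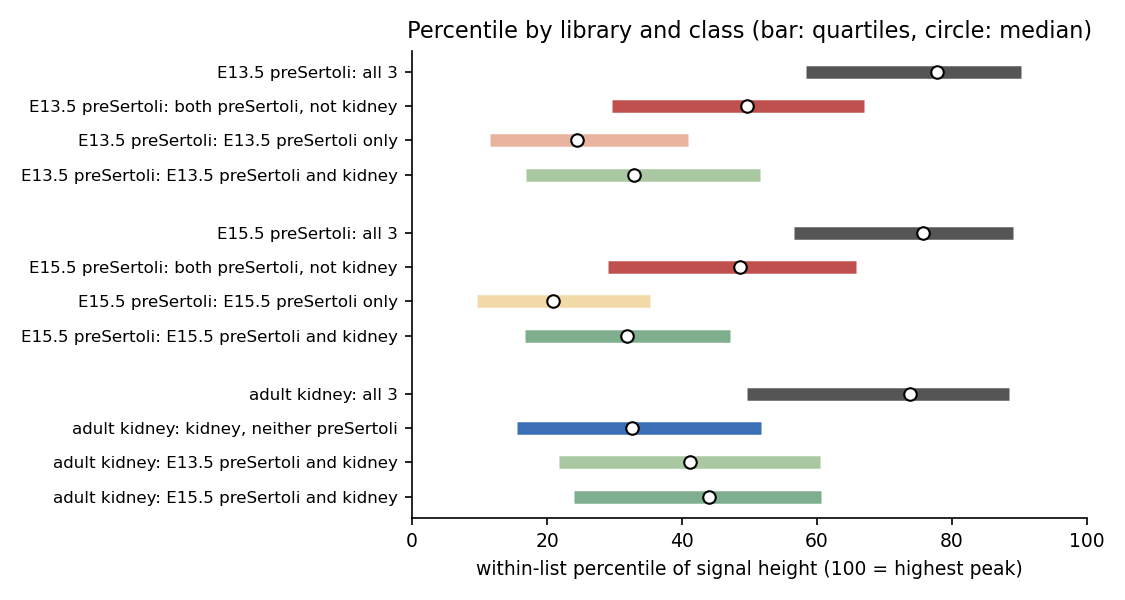
Within-list percentile of signal height (horizontal axis, 100 is the highest peak) for each library and class of region. Bars span the quartiles and circles mark medians; shared regions lie highest in all 3 libraries, at medians of 77.8, 75.8 and 73.8, and regions called in 1 library alone lie lowest in each.

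The makeup of the lists changed steadily along the ranking. In the lowest bin of 10 percentile points of the kidney list, 70.8% of regions were kidney-only and 17.8% shared. In the highest bin 0.249% were kidney-only (18 of 7217, interval 0.158 to 0.394) and 99.6% shared. E13.5 regions without a kidney peak, whether or not E15.5 had them, fell likewise from 86.9% in the lowest bin to 63.0% in the sixth and 4.00% (351 of 8782, interval 3.61 to 4.43) in the highest. E15.5 regions without a kidney peak fell from 85.4% to 55.8% and 6.80% (553 of 8135). As a share of all regions in a bin, preSertoli-not-kidney regions were most frequent in the sixth, at 39.2% in E13.5 and 41.9% in E15.5. In the lowest E13.5 bin, 66.9% of regions were called at that stage alone. In the highest bin a preSertoli region thus lacked a kidney peak more often than a kidney region lacked a peak of a given stage, which was 0.291% for E13.5 and 0.360% for E15.5. With the 62218 strongest peaks of each list, 0.0966% of the kidney regions in the highest bin lacked an E13.5 peak and 0.225% an E15.5 peak. Those without a peak at either stage were 0.0805%. In turn, 2.75% of E13.5 and 5.97% of E15.5 regions in the highest bin lacked a kidney peak.

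**Figure D2:**
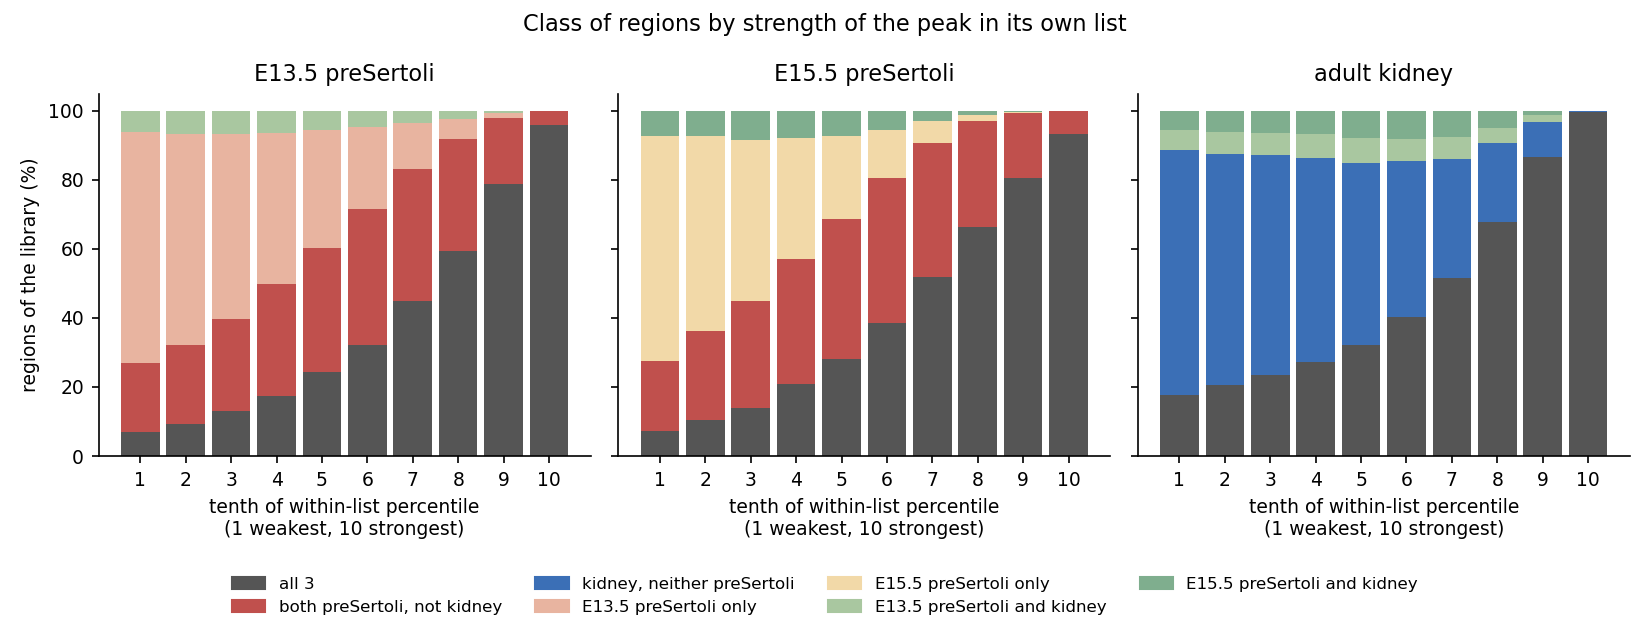
Share of regions (%) of each class in bins of 10 percentile points, from the weakest (1) to the strongest (10) peaks of each list. Kidney-only regions fall from 70.8% to 0.249% of the kidney list, and regions without a kidney peak fall from 86.9% to 4.00% of the E13.5 list (preSertoli-not-kidney and E13.5 only together).

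Kidney was not apart from every other cell type in this respect. The same rule with another list in place of kidney left 0.0949% of the strongest brain regions, 0.129% of fibroblast, 0.270% of heart, 2.49% of ES cell and 4.76% of liver regions without a preSertoli peak. Kidney, at 0.249%, lay between fibroblasts and heart. Its interval overlapped those of brain, fibroblasts and heart and lay below those of ES cells and liver. With the 62218 strongest peaks of each list, kidney had the lowest value (0.0805%), with an interval (0.0344 to 0.188) that overlapped those of brain (0.145%), fibroblasts (0.209%) and heart (0.210%) and lay below ES cells (1.11%) and liver (3.31%). With these equal lists, regions in all 3 lists made up 46.5% of the kidney regions (interval 46.1 to 46.9), 46.6% of heart, 45.9% of fibroblast, 47.6% of brain, 47.7% of ES cell and 40.7% of liver regions. Kidney did not differ from heart or fibroblasts beyond the counting intervals by this measure. All these comparisons use the same 2 preSertoli lists.

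Among preSertoli-not-kidney regions, the 10 with the highest lower value of their E13.5 and E15.5 percentiles were 628 to 2192 bp wide. The first was chr6:84084200-84085564, at percentiles 99.1 in E13.5 and 99.3 in E15.5. It lay in an H3K27ac domain of 9000 bp and also held a peak in fibroblasts, brain and liver. The second, chr2:32414491-32415885, stood at 98.8 and 99.7, lay in a domain of 5800 bp and shared a peak with brain alone. The region chr17:25563858-25565110 stood at 97.0 and 99.9 in a domain of 6400 bp and shared a peak with ES cells alone. Of the 10, 7 overlapped H3K27ac, and none was free of peaks in all of the 5 other lists. Over the whole class 44.2% were free of them, as were 537 of the 2010 regions above E13.5 percentile 80.

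The kidney-only regions reached lower ranks. Their strongest, chr8:107147957-107148700, stood at percentile 92.7 of the kidney list, was 744 bp wide, had no H3K27ac in preSertoli cells and held no peak in any of the 5 other lists. The next, chr7:35928722-35929460, stood at 92.5 and was shared with heart and liver. The third, chr17:84556131-84557012, stood at 91.7 and was shared with liver alone. The 10 strongest ended at percentile 90.9, and 9 of them also held a peak in another list. Only chr3:88260165-88260973 (percentile 91.0) of these 10 overlapped a preSertoli H3K27ac domain, of 1600 bp.

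The mark H3K27ac, measured apart from the DNase lists in E13.5 preSertoli cells, ordered the classes. It overlapped 46.1% of shared regions (15166, interval 45.5 to 46.6), 31.9% of preSertoli-not-kidney regions (7340, 31.3 to 32.5) and 8.29% of kidney-only regions (2426, 7.98 to 8.61), against 24.2% of all 137738 regions. Over the autosomes and X, chromosome values ran from 42.3 to 70.1%, from 27.7 to 37.2% and from 6.53 to 9.27%, with no overlap between the classes. On Y, which had no kidney peak, 33 of 37 preSertoli-not-kidney regions (89.2%) overlapped the mark. Since no kidney H3K27ac was analysed here, the low kidney-only share is partly built into the comparison, and the width of the regions follows the same order. With the midpoint of the region in place of any overlap, an alternative chosen after seeing the data, the shares were 44.9%, 30.8% and 7.51%.

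Rank in the kidney list bore on the preSertoli mark in shared regions only at the top. Between 25.5 and 29.5% of shared regions overlapped H3K27ac in each of the 8 lower bins of the kidney ranking, then 51.5% in the ninth and 92.9% (6680 of 7188) in the highest. Kidney-only regions stayed between 5.56 and 9.56% in all 10 bins, with only 18 regions in the highest. Regions that are weak in kidney and open in preSertoli cells thus carried the preSertoli mark about as often as regions of middling kidney rank.

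At matched preSertoli rank the classes crossed. In the 8 lower bins of the E13.5 ranking, preSertoli-not-kidney regions overlapped H3K27ac more often than shared regions, by 5.20 to 10.51 points, with intervals apart in each bin. In the sixth bin, for example, the shares were 32.2% of 3332 regions and 21.7% of 2743. In the ninth and highest bins the order was reversed, with 45.5% against 54.0% and 61.8% against 83.1%. Ranked by E15.5, preSertoli-not-kidney regions were higher with intervals apart in 5 bins by at most 5.24 points, shared regions were higher in the highest bin (78.7 against 64.7%), and intervals overlapped in the other 4. By either ranking, then, shared regions led clearly in the top bin, where the shared class is largest.

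**Figure D3:**
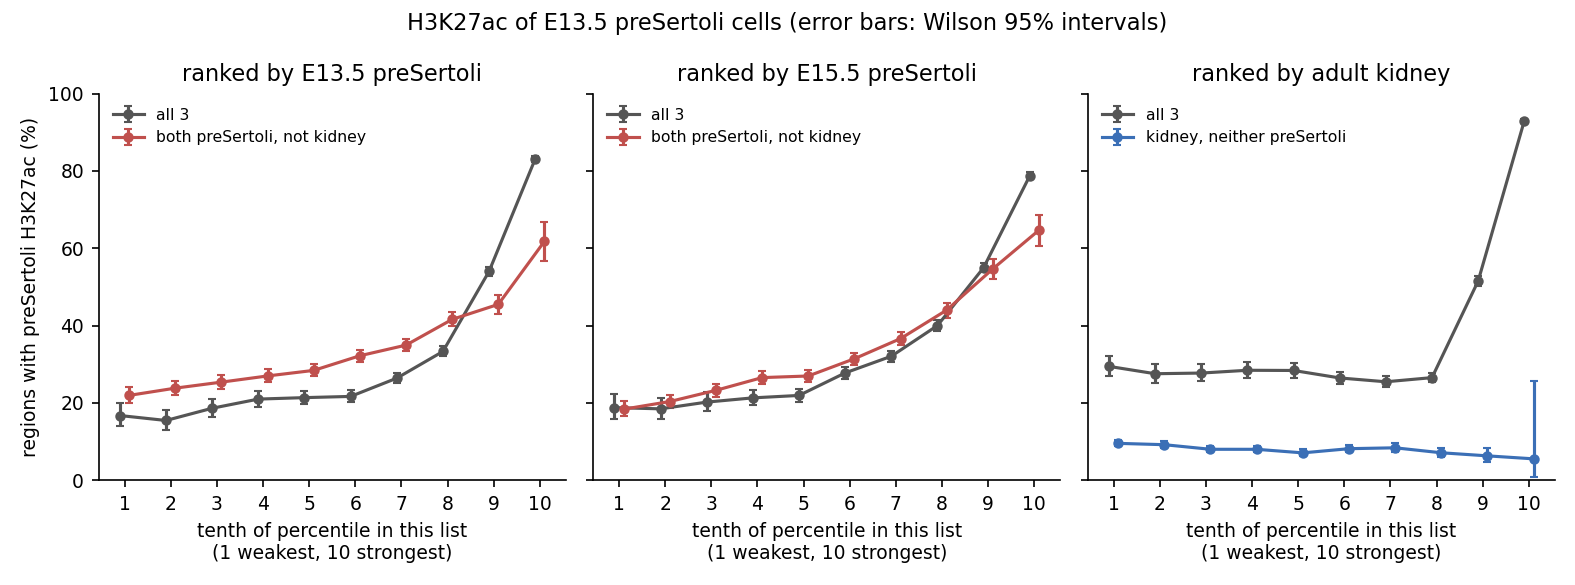
Share of regions (%) overlapping an E13.5 preSertoli H3K27ac domain, by bins of 10 percentile points in each list, with Wilson 95% intervals. Shared regions rise to 83.1% by E13.5 rank and 92.9% by kidney rank, whereas kidney-only regions stay under 10% in every bin.

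The mark also varied with how many other cell types had the region. Regions were split by the number of the 5 other lists (ES cells, fibroblasts, brain, heart, liver) with a peak there, a split chosen after seeing the data. Up to the E13.5 percentile of 80, regions with 1 to 4 other lists overlapped H3K27ac in 26.1% of preSertoli-not-kidney cases (11289 regions, interval 25.3 to 26.9) and 25.99% of shared cases (9323 regions, 25.1 to 26.9). Regions with none of the other lists were at 35.4% (34.5 to 36.4) and 38.8% (34.8 to 43.0). Above percentile 80, the pairs were 44.8% and 44.9% with 1 to 4 other lists, and 58.5% and 59.2% with none. The intervals overlapped within each of these 4 pairs. The shared class also contains 13128 regions above percentile 80 that are open in all 5 other lists, of which 74.1% carried the mark, against 27 preSertoli-not-kidney regions (33.3%, interval 18.6 to 52.2). Ranked by E15.5, the intervals of 2 of the 4 pairs overlapped. Up to percentile 80 with no other list, shared regions were higher, at 39.6% (35.5 to 43.7) against 34.4% (33.5 to 35.4). Above percentile 80 with 1 to 4 other lists, preSertoli-not-kidney regions were higher, at 53.9% (51.2 to 56.6) against 46.3% (44.1 to 48.5).

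Seen from the domains, 47.5% of the 28586 H3K27ac domains contained a shared region, 22.3% a preSertoli-not-kidney region and 7.45% a kidney-only region. A further 24.3% contained no region of the 3 lists. In 502 domains (1.76%) the only region was a kidney-only one, which means a preSertoli H3K27ac domain with an open site called in kidney and in neither preSertoli library. An absent call does not show closed chromatin.

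The 1-sided classes differed in how often the 5 other cell types had their regions. PreSertoli-not-kidney regions were also open in ES cells in 36.2% of cases, against 39.8% of all 137738 regions. Their shares were further below that background in fibroblasts (19.8 against 29.3%), brain (17.9 against 32.4%) and heart (16.4 against 35.2%), and furthest in liver (7.76 against 34.1%). Kidney-only regions were above it in liver, at 39.9%, and below it in heart (26.9%), brain (16.5%), fibroblasts (11.1%) and ES cells (15.1%). The ES cell list is the longest, with 96536 peaks. A peak in none of the 5 was found for 44.2% of preSertoli-not-kidney regions (interval 43.6 to 44.8), 39.4% of kidney-only regions (38.9 to 40.0) and 1.81% of shared regions, against 38.5% of all regions. Shared regions were in each of the other lists at 78.9 to 88.2%, and 63.6% were in all 5.

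The overlap of kidney-only regions with liver was larger among strong peaks. In the upper part of the kidney-only class, split at its median percentile, 50.9% of regions were open in liver, against 29.0% in the lower part. Liver was also the most frequent single partner, alone in 5641 kidney-only regions, whereas heart was alone in 1570. On the preSertoli side the most frequent single partner was ES cells, alone in 3501 regions. The ES cell share was 39.4% in the upper and 33.0% in the lower part of that class. There too every list rose with strength, as in fibroblasts (23.8 and 15.7%), brain (22.1 and 13.7%), heart (19.8 and 13.1%) and liver (8.90 and 6.62%). H3K27ac covered 25.4% of the regions shared with ES cells alone, 39.8% of those shared with heart alone (1049), 37.7% of those shared with fibroblasts alone (801), 28.7% of those shared with brain alone (760) and 36.7% of those with no other list. The kidney, liver, heart and brain libraries are all adult whole organs cut with DNase I.

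**Figure D4:**
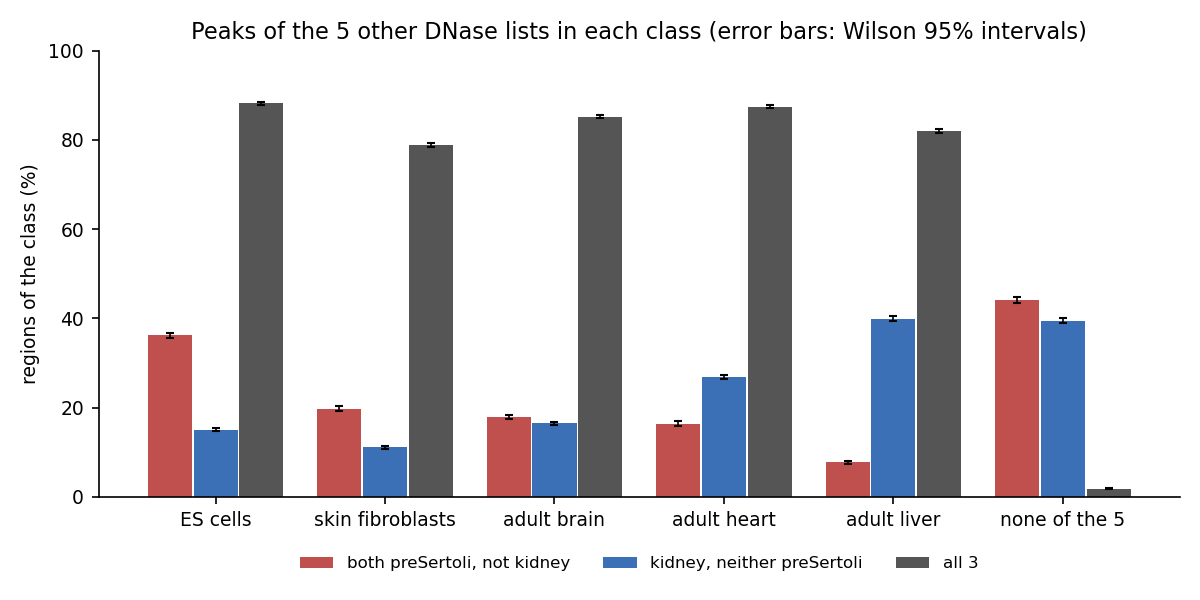
Share of regions (%) of each class that hold a peak in each of the 5 other DNase lists, or in none of them, with Wilson 95% intervals. PreSertoli-not-kidney regions are at 36.2% in ES cells and 7.76% in liver, kidney-only regions at 15.1% and 39.9%, against 39.8% and 34.1% of all regions, while shared regions exceed 78% in every list.

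Few regions were open in preSertoli cells at both stages and in kidney and had no peak in the 5 other lists. There were 595, or 1.81% of the shared regions. They were 4.90% (interval 4.53 to 5.30) of the kidney regions that are either private to kidney or shared with preSertoli cells alone. The same quantity was 8.49% for ES cells, 7.37% for heart, 6.32% for brain, 5.23% for fibroblasts and 2.38% for liver. The kidney share was below those of heart, brain and ES cells with intervals apart, and its interval overlapped that of fibroblasts. Their median percentiles were 51.2 in E13.5, 52.8 in E15.5 and 29.1 in kidney, and none reached percentile 90 in kidney. H3K27ac covered 40.5% of them (36.6 to 44.5). The region highest by the lowest of its 3 percentiles was chr12:5256455-5257315, at 83.7, 89.998 and 85.9, followed by chr1:193151721-193152718, at 93.3, 90.8 and 82.3. Both overlapped H3K27ac, as did 9 of the 10 highest, a set chosen after the values were seen.

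Inside the shared class, 48.4% of regions ranked within 10 points of kidney in E13.5 and 46.4% in E15.5, and 55.3% ranked within 10 points between the stages. The median absolute difference between the mean of the 2 stages and kidney was 10.2 points. Each stage alone differed from kidney by a median of 10.6 points (E13.5) and 11.3 points (E15.5), and the stages differed from each other by 8.54. With only the upper 50% of each list by signal height, the first and last of these medians were 11.04 and 11.01 points. These 2 are not on an equal footing, since the first uses a mean of 2 libraries and the last single libraries. Each stage alone was not compared with kidney in that setting. Across the 32930 regions Spearman's rho was 0.772 between the stages, 0.658 between E13.5 and kidney and 0.632 between E15.5 and kidney, as a description of regions that were selected to have a peak in all 3 libraries. Gaps over 50 points separated the pairs more: 2.20% of regions between the stages, against 7.46% for E13.5 and 6.82% for E15.5 against kidney. The 2 preSertoli libraries are the only pair of 1 cell type, and they also share strain and digestion.

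**Figure D5:**
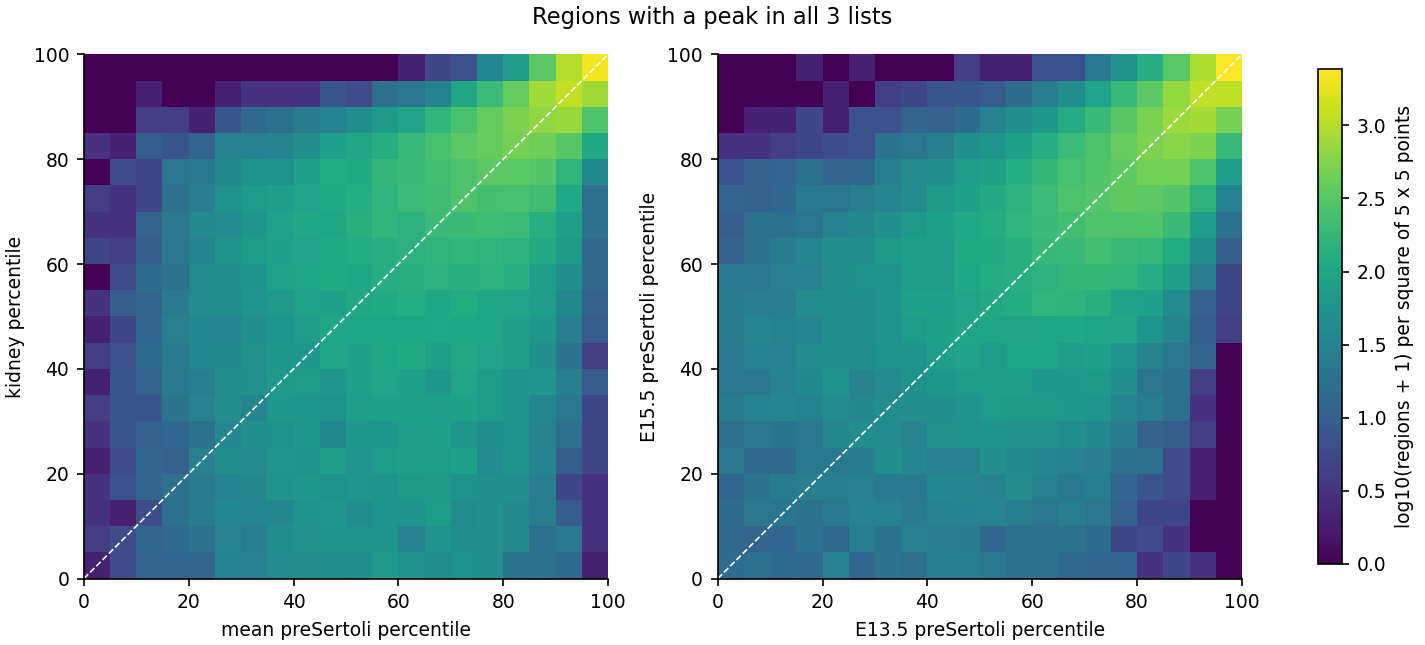
Number of shared regions per square of 5 by 5 percentile points (colour, log10 of the number plus 1), for the mean of the preSertoli stages against kidney and for E13.5 against E15.5. Regions gather at the upper right end of the dashed diagonal in both panels, and more lie far from it in the kidney panel, where 5.46% of regions differ by over 50 points against 2.20% between the stages.

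Large gaps leaned to the preSertoli side. The mean of the stages was more than 50 points above kidney in 1543 shared regions (4.69%) and more than 50 points below it in 255 (0.774%). For single stages the counts were 1873 above and 582 below in E13.5, and 1642 above and 603 below in E15.5. All these counts use shared regions, which had to be called at both stages but in a single kidney library. Regions in kidney and E13.5 but not E15.5 had median percentiles of 32.9 in E13.5 and 41.2 in kidney. Those in kidney and E15.5 but not E13.5 were at 31.9 in E15.5 and 44.1 in kidney. Such regions are left out of the counts above, and the lean without this rule was not tested. Kidney ranked more than 50 points below both stages in 1083 regions. Of these 74.3% were open in ES cells and 35.1% in liver, and 40.5% carried H3K27ac. Kidney ranked more than 50 points above both stages in 103 regions, of which 64.1% were open in ES cells, 86.4% in liver, and 17.5% (interval 11.3 to 25.9) carried H3K27ac. The shared class as a whole was at 88.2%, 82.0% and 46.1%. The order of liver and ES cells that was seen between the 1-sided classes was thus present within shared regions too. These groups were chosen by their ranks, so the ranks are a description.

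The largest gap was at chr10:80940084-80940790, with percentiles of 96.6 in E13.5, 97.2 in E15.5 and 2.36 in kidney. It had no H3K27ac. The second, chr17:35834335-35835405, stood at 92.2, 96.3 and 0.186 and lay in an H3K27ac domain of 9600 bp. Of the 5 largest such gaps 4 overlapped H3K27ac. In the other direction chr3:9173674-9174709 stood at 4.38, 4.96 and 82.3, and chr19:44815807-44816393 at 5.20, 3.45 and 81.8. Both lacked H3K27ac and both held a liver peak, as did all of the 5 regions with the largest gap in favour of kidney.

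At the top of all 3 lists the cell types converged. Both stages and kidney placed 4265 shared regions above percentile 90. Of these 94.3% (interval 93.6 to 94.96) overlapped preSertoli H3K27ac and 99.6% were open in all 5 other lists. The single highest region, chr17:39979748-39986003, was at percentile 100 in each of the 3 lists and present in the 5 others, yet overlapped no H3K27ac domain. The next, chr11:108872780-108873619, also lacked the mark. No filter for repeated sequence was applied here, and whether reads from repeats raised either peak was not tested. The third, chr5:118694652-118696646, stood at 99.97 or above in each list and lay in a domain of 2600 bp. Shared regions with all 3 percentiles below 50 were 1760, with 18.2% under H3K27ac and 10.9% in all 5 others.

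Kidney-only regions lay nearer to each other than to the other classes. The median distance from a kidney-only region to the next one was 9.13 kb, against 25.96 kb to the nearest preSertoli-not-kidney region. For preSertoli-not-kidney regions the distances were 11.6 kb to their own class, 22.0 kb to kidney-only and 11.02 kb to shared regions. The kidney-only class is the larger of the 1-sided classes, which by itself shortens distances to it. In windows of 100 kb, 3279 held preSertoli-not-kidney regions and no kidney-only ones, 4405 the reverse and 6249 both. The windows with both held 70.7% of preSertoli-not-kidney and 66.4% of kidney-only regions.

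The densest windows showed what such clusters hold. Window chr1:90100001-90200000 had 28 kidney-only regions among 39, of which 13 overlapped preSertoli H3K27ac and 2 were in none of the 5 other lists. Of the 28, 25 were open in liver, 19 in heart, 16 in brain, 15 in ES cells and 11 in fibroblasts. Window chr14:69900001-70000000 had 20 kidney-only regions among 37, with 7 under H3K27ac. Of the 20, 12 were open in liver, 10 in heart, 8 in brain, 2 in fibroblasts and 0 in ES cells. Window chr8:119800001-119900000 also had 20, none under H3K27ac. Of these, 11 were open in liver, 7 in heart, 7 in fibroblasts, 6 in ES cells and 2 in brain. On the preSertoli side, chrY:2800001-2900000 held 18 preSertoli-not-kidney regions, all of them open in fibroblasts and all under H3K27ac. Only 2 domains, of 53.2 kb together, met this window. The next were chr17:25500001-25600000 with 15 regions, 5 of them under H3K27ac and 7 in none of the other lists, and chr5:115000001-115100000 and chr15:98600001-98700000 with 14 each. The kidney list had no peak on Y, so the 37 preSertoli-not-kidney regions there could not be kidney regions by the rule. The ES cell, brain, heart and liver lists had none on Y either, so only fibroblasts could share those regions.

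Chromosome X stood apart among the chromosomes with kidney peaks in its share of preSertoli-not-kidney regions. Of its 1819 regions 11.3% (interval 9.90 to 12.8) were preSertoli-not-kidney, against 15.0 to 18.5% on the autosomes. Shared regions were 28.1% of those on X, against 21.1 to 26.9% on the autosomes. H3K27ac covered 70.1% of the 512 shared regions on X (66.0 to 73.9), against 45.7% on the autosomes. The preSertoli cells were male, whereas the sex of the kidney is not in the labels used here.

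RNA of E15.5 preSertoli cells, in 3 libraries from sorted cells, showed which programmes of the testis and kidney these cells transcribed. Levels are CPM, the share of a library's counts on a fixed scale, and are not divided by transcript length, so they are not compared between genes. A gene was called expressed at 1 CPM in all 3 libraries, which 47.1% of all 27697 gene symbols were. Of 33 Sertoli genes all 33 were expressed, among them Sox9 at 278, 283 and 217 CPM and Dmrt1 at 126, 127 and 128 CPM. Amh, the hormone that removes the Müllerian duct, was at 2167, 2660 and 1319 CPM, a spread wider than that of Dmrt1. The label of the sorted cells thus matched its markers. Kidney RNA was not analysed here, so the kidney label was not checked against markers.

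The transcription factors of the intermediate mesoderm and urogenital ridge were split. Of the 27 measured, 13 (48.1%) were expressed, a share near the background. Gata4, needed for gonad formation, was at 725, 745 and 761 CPM. Wt1, needed for both gonad and kidney, was at 404, 386 and 389 CPM. Cited2 (173, 195 and 117 CPM), Cbx2 (66.4, 74.2 and 63.9) and Osr1 (46.3, 42.0 and 47.5) followed. Pax2 and Pax8, regulators of nephric development, were at 1.18 ± 0.267 and 1.45 ± 0.400 CPM (SD, n = 3), at the edge of the threshold. Six2, a marker of nephron progenitors, was at 0.215 ± 0.0286 CPM (SD, n = 3), Lhx1 at 0.0183 CPM, and Hoxc11 was listed at 0 in all 3. Lhx9 and Emx2, both needed for gonad formation, were at 8.26 ± 2.53 and 6.92 ± 1.27 CPM (SD, n = 3).

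Of 57 nephron segment genes 15 were expressed, a smaller share than the 47.1% of all gene symbols, and 7 were listed at 0 in all libraries. The podocyte list had 6 of 9 expressed, including Wt1, the adaptor Cd2ap (237 ± 15.9 CPM, SD, n = 3) and Synpo (107 ± 7.09), whereas the slit diaphragm gene Nphs1 was at 0.829 CPM. The proximal tubule list had 6 of 19, led by Gatm (769 ± 63.9 CPM), an enzyme of creatine synthesis that is on the Sertoli list as well. The endocytic receptor genes Lrp2 and Cubn were at 1.37 and 1.19 CPM, and the phosphate transporter gene Slc34a1 was at 0. The loop and distal tubule list had 2 of 13, of which the kinase gene Wnk1 stood at 639 ± 36.3 CPM while Umod was at 0. The collecting duct list had 1 of 16, Hsd11b2 (6.97 ± 0.162 CPM), and the water channel gene Aqp2 was at 0.119 CPM. A separate list of nephron epithelium and cadherin genes, not among the 57, had 7 of 15 expressed (46.7%), near the share of all gene symbols. It was led by Krt8 (83.4 CPM), Krt18 (33.0) and Epcam (21.1), whereas Cdh16 was at 0.0925 CPM.

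Markers of some other cells were present in the sorted RNA. All 8 fetal Leydig genes were expressed, with a summed level of 1607 to 2528 CPM over the libraries. The 33 Sertoli genes summed to 14831 to 15464 CPM. The medians of the gene means were 258 CPM for the Leydig and 285 CPM for the Sertoli list. Sums and medians depend on the genes listed and on transcript length, so they give no share of cells. Genes of interstitium and smooth muscle were expressed in 7 of 7 cases (sum 399 to 694 CPM) and germ cell genes in 7 of 8 (47.5 to 60.6 CPM). Endothelial genes were expressed in 4 of 8 (35.0 to 37.6 CPM), near the 47.1% of all gene symbols. Blood and macrophage genes were expressed in 2 of 6 (22.8 to 34.3 CPM), a smaller share than that of all gene symbols. None of the 4 liver genes was expressed. The part of such cells in the preSertoli DNase lists was not tested.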

How the data were processed

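Per the labels' protocols, chromatin of preSertoli cells was cut by endogenous nucleases and that of kidney by DNase I. Per the submitters' processing notes, the DNase-seq tools were BWA 0.6.1-r104, bedtools and SAMtools, with build mm9. The caller of the DNase peaks is not given in the sources used here. A DNase list deposited by the authors gives peaks of 1 library with a score, a signal height and a −log10 p, whose nature was read from the values because the files have no header. The H3K27ac domains deposited by the authors are 1 list for 2 libraries, made with tools that include SICER per the submitters' processing notes, with no statement of pooling. The deposited RNA-seq table holds the square root of scaled, estimated (expected) counts of RSEM 1.2.0, per the file headers and the labels. Its values were squared and divided by the column total to give CPM, and the highest row of each symbol was kept.

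Peaks of the 3 lists overlapping by at least 1 bp were merged with Python 3.11.15, numpy 2.4.6 and pandas 2.3.3. Percentiles used signal height, with ties averaged. The functions were checked on simulated lists with known classes. Samples were grouped by their titles and source labels. With 1 library per DNase group no test was made. The 3 RNA libraries are labelled biological replicates. Regions named were the highest ranked 10 of each 1-sided class by their lowest percentile, 5 shared by lowest percentile, 5 at each end of the preSertoli minus kidney difference, and the densest windows; genes named were chosen from lists by level. The members, classes and gene lists were chosen with earlier results of these data known. Alternatives were another overlap rule, stricter or equal lists, single stages, autosomes, another ranking column and other H3K27ac and CPM thresholds. Input libraries were not used here.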

Additional observations from a re-analysis of the deposited data

How the results depend on the processing

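Of 108 alternatives for 17 results, 49 stayed within the main value's interval (or 1.5 times a count) and 59 moved. Counts, shares and absolute differences are never negative, so only the median percentile gaps to shared regions had a direction to change. These gaps stayed positive, with lowest values of 26.8 (E13.5), 26.2 (E15.5) and 36.8 (kidney) points. Shared, preSertoli-not-kidney and kidney-only regions kept this order of H3K27ac share in all 9 settings that alter regions or classes, the main one included. Autosomes alone moved none of these results. Below, values of a kind are given for the preSertoli-not-kidney, kidney-only and shared classes in that order unless stated.

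With the upper 50% of each list there were 11424, 11579 and 19821 regions, H3K27ac shares of 40.9, 9.90 and 59.7%, and 44.9% (preSertoli-not-kidney) and 1.27% (shared) without another list. The median gaps to shared regions were 30.8 (E13.5), 29.3 (E15.5) and 44.3 (kidney) points, and the median absolute differences were 11.04 points against kidney and 11.01 between the stages. With E15.5 alone as the preSertoli list there were 43768 preSertoli-not-kidney regions, H3K27ac shares of 27.0, 9.48 and 43.2%, shares without another list of 53.8, 36.0 and 2.50%, gaps of 38.6 (E15.5) and 37.0 (kidney) and a median absolute difference of 12.2. With E13.5 alone these were 50384 regions, 22.5, 9.62 and 43.4%, 55.8, 35.7 and 2.57%, 39.6 (E13.5), 36.8 (kidney) and 11.8. Lists of 72370 peaks each gave H3K27ac shares of 34.5, 8.67 and 47.6%, 45.4% of preSertoli-not-kidney regions without another list, gaps of 29.0 (E13.5) and 42.4 (kidney), and differences of 10.7 against kidney and 9.26 between the stages. In 1 alternative, peaks of the 3 lists were joined only where they overlapped by 50% of the shorter peak. Another list was then counted only where its peaks covered 50% of the joined region. This gave 56.6, 44.3 and 5.17% without another list and 8.90% H3K27ac in kidney-only regions. With 50% of the region under H3K27ac the shares were 30.7, 7.51 and 44.6%, and with its midpoint, an alternative chosen after seeing the data, 30.8, 7.51 and 44.9%. The mean over the peaks of a region gave gaps of 26.8, 26.2 and 38.6 and differences of 12.2 and 9.75, and the score column gave differences of 10.45 and 8.86. At 5 CPM, 9 nephron segment genes were expressed. Except where an alternative uses fewer peaks or libraries by construction, the cause was not tested.

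No paired analysis was possible because each DNase group is 1 library, the H3K27ac list holds both ChIP libraries and none of these results comes from a test. Gene, promoter and motif analyses with their alternatives were not run, since no mm9 genome or annotation was used here. The depth of the DNase libraries is unknown, so a missing peak limits every class.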

Other observations

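The regions called at a single preSertoli stage were the weakest of the preSertoli lists. The 25662 regions of E13.5 alone had a median percentile of 24.5 in the E13.5 list, and the 19495 of E15.5 alone one of 20.9 in the E15.5 list. H3K27ac, measured at E13.5, covered 12.5% (interval 12.1 to 12.9) of the E13.5 regions and 20.4% (19.8 to 20.9) of the E15.5 regions, so the later stage's own regions carried the earlier stage's mark more often. Those shared with kidney at 1 stage were alike, with 16.2% of 3635 regions for E13.5 and 15.8% of 3757 for E15.5. Whether these regions were missed calls or differ between the stages was not tested.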
